A study of Mus musculus with 16 samples.

Results

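Small RNA of mature sperm was compared between Dnmt2+/+ males on a high-fat diet (HFD) and Dnmt2+/+ males on a normal diet (ND), with 2 libraries per diet. These 4 libraries were chosen by the genotype and diet in their labels, out of 16 in the series, of which 8 are sperm libraries. All males had the C57BL/6NCrl background. Mice were purchased at 6 weeks of age and were adult at collection, and the exact age at collection and the length of the diet are not given in the sources used here. Sperm were collected from the cauda epididymis at 37 °C and pelleted at 600 g, and no step against other cell types is described in the labels. The 4 Dnmt2-/- libraries, from a knockout line backcrossed to the same background, entered the fits to estimate the spread. The labels do not say whether the replicates were separate animals or pools, so p-values measure the spread between these libraries, which may be technical.

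Dnmt2, also called Trdmt1, is a methyltransferase that adds a methyl group to a cytosine of certain tRNAs. Mature sperm carry little messenger RNA, and their short RNA is known to consist largely of the 5′ parts of tRNAs, cut near the anticodon, together with pieces of ribosomal RNA and microRNAs. Part of this short RNA is known to be taken up from epithelial cells while sperm pass through the epididymis. The microRNAs of the let-7 family share a seed, the stretch near the 5′ end that pairs with target messages, and are abundant in many differentiated somatic tissues.

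The reads that the comparison turned on began with a few sequences. Below are the most abundant read of the glycine tRNA start, its substituted form, the 28S ribosomal RNA start at 40 nt and its substituted form. Capitals mark the base that is substituted, and T stands for U. The names of tRNA and ribosomal RNA rest on recognition of the sequences, since no table of those RNAs was used here, and copies of a tRNA gene that share the sequence cannot be told apart.
Glycine tRNA start, 31 nt: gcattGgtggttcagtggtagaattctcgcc
Glycine tRNA start with G6T, 31 nt: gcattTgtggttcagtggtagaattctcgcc
28S rRNA start, 40 nt: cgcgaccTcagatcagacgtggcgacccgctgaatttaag
28S rRNA start with T8C, 40 nt: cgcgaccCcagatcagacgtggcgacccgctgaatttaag
Positions are counted from 1 at the 5′ end of the read, and a token such as T8C gives the base of the unchanged read, the position and the base found there; of 2 forms, the one with the higher median level over the 8 sperm libraries is called unchanged.

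Depth was 19030258 and 13649529 reads in ND replicates 1 and 2, and 10296280 and 10165031 reads in HFD replicates 1 and 2. Levels are given as CPM, the count of a read for every 1000000 in its library, or as percentages of the library, so that a rise of 1 class lowers the others. The ND libraries differed from each other more than the HFD libraries did. Over the 3514 sequences with a mean of at least 10 CPM, log2(CPM + 1) correlated with r = 0.493 between the ND replicates and r = 0.943 between the HFD replicates, and r was 0.771 and 0.800 between ND replicate 2 and the HFD libraries, as a description across sequences, which are not independent replicates.

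The libraries also carried different base changes. The change G29T had a median of 418 per 10000 unchanged reads over 31 abundant sequences in ND replicate 1, against 2.63 in ND replicate 2 and 3.11 and 3.86 in the HFD libraries. The change C26G had a median of 10.3 and 10.4 per 10000 over 28 sequences in the HFD libraries, against 1.04 and 0.412 in the ND libraries. By these changes the sperm libraries form 3 sets: ND replicate 1 with both Dnmt2-/- ND libraries (set A), both HFD libraries with Dnmt2-/- HFD replicate 1 (set B), and ND replicate 2 with Dnmt2-/- HFD replicate 2 (set C). No Dnmt2+/+ ND library shares a set with a Dnmt2+/+ HFD library. Diet and set therefore cannot be told apart within Dnmt2+/+ sperm, and each result below is given for every library.

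Reads of HFD sperm lay less often at 30 to 34 nt, the length of most 5′ tRNA parts, and more often at 18 to 24 nt and at 35 to 44 nt. The 30 to 34 nt class held 69.6% and 64.4% of reads in the ND replicates and 52.7% and 53.2% in the HFD replicates, a difference of -14.1 percentage points between means. The 35 to 44 nt class held 9.32% and 10.5% on ND and 21.8% and 19.9% on HFD, a difference of 11.0 points. These diets did not overlap in either class. The 18 to 24 nt class held 7.31% and 10.3% on ND and 13.1% and 12.3% on HFD, a difference of 3.89 points, again without overlap. The 25 to 29 nt class held 13.8% and 14.8% on ND and 12.4% and 14.7% on HFD, so that the diets overlapped. No test was made of these shares, because 2 libraries against 2 cannot go below p = 0.333 by a two-sided exact permutation. The 95% Wilson interval of a share reached at most 0.0307 points to either side and covers counting error only.

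Single lengths stood out at 22, 30, 31, 36 and 40 nt. Reads of 30 nt made up 21.0% and 21.8% of the ND libraries and 14.2% and 17.3% of the HFD libraries. Reads of 31 nt made up 25.5% and 24.5% of the ND libraries and 18.2% and 16.8% of the HFD libraries. Reads of 36 nt made up 2.67% and 3.10% on ND and 6.09% and 6.06% on HFD. Reads of 40 nt made up 0.146% and 0.441% on ND and 4.30% and 2.68% on HFD. The 40 nt peak was thus nearly missing from both ND libraries, while the most frequent length was 31 nt in 3 libraries and 30 nt in HFD replicate 2. Reads of 22 nt, the usual length of a microRNA, made up 2.78% and 2.23% on ND and 5.04% and 4.08% on HFD. In Dnmt2-/- sperm 40 nt reads made up 0.415% and 0.426% on ND and 1.59% and 0.936% on HFD.

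**Figure D1:**
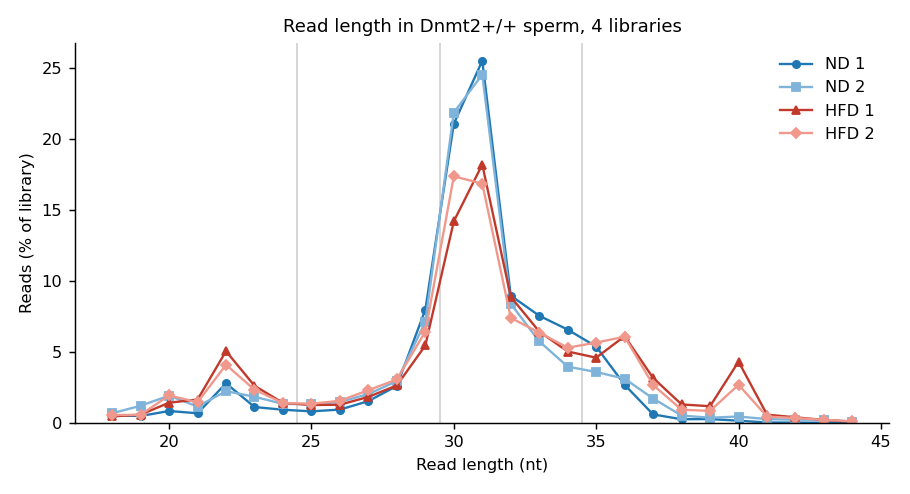
Share of reads (percent of the library) at each length from 18 to 44 nt in the 4 Dnmt2+/+ sperm libraries; points are single libraries and grey lines separate the 4 length classes. The ND libraries are higher at 30 and 31 nt, and the HFD libraries are higher at 22, 36 and 40 nt.

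The first base is a coarse guide to the RNA a read comes from. The glycine tRNA start begins with guanine and the 28S rRNA start with cytosine, while thymine comes first in several kinds, among them 5′ parts of tRNAs and the let-7 microRNAs, so that a thymine share is no measure of microRNA. Over all lengths, reads beginning with cytosine made up 8.68% and 16.7% of the ND libraries and 24.7% of each HFD library. Reads beginning with guanine made up 21.8% and 40.4% on ND and 24.2% and 27.8% on HFD, and those with thymine 66.5% and 38.8% on ND and 46.4% and 43.3% on HFD. The cytosine share was higher in both HFD libraries, while the thymine and guanine shares of the HFD libraries lay between those of the ND replicates.

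Within the length classes the first base moved in different ways. Among reads of 35 to 44 nt, cytosine came first in 29.1% and 57.6% on ND and in 70.0% and 65.5% on HFD, and thymine in 61.7% and 23.9% on ND and 15.6% and 20.5% on HFD. Among reads of 18 to 24 nt, thymine came first in 51.2% and 35.8% on ND and in 65.5% and 55.6% on HFD. Among reads of 30 to 34 nt, thymine came first in 69.4% and 39.7% on ND and in 51.9% and 47.0% on HFD, and guanine in 25.6% and 50.6% on ND and in 34.2% and 37.9% on HFD. In this main class the ND replicates enclosed the HFD libraries for both bases: ND replicate 1 was rich in thymine and ND replicate 2 in guanine.

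**Figure D2:**
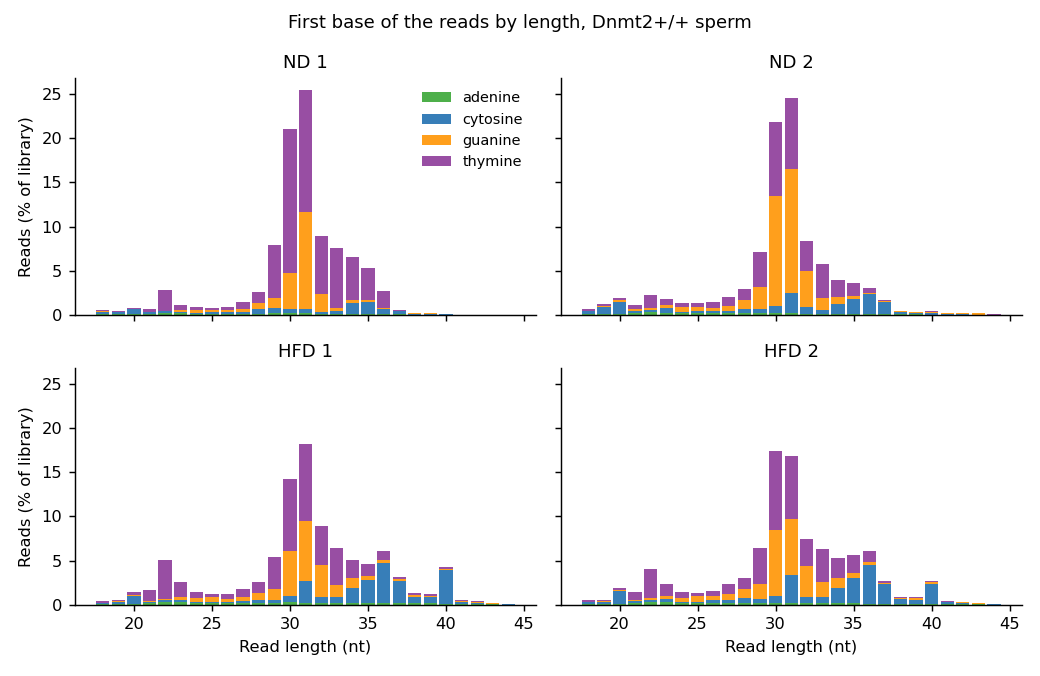
Share of reads (percent of the library) by length, with the bars divided by the first base, in 1 panel per Dnmt2+/+ library. ND replicate 1 is mostly thymine at 30 and 31 nt, ND replicate 2 has more guanine there, and the cytosine bar at 40 nt is visible in the HFD panels.

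When reads were summed by length and first base, 3 of 108 classes passed the edgeR quasi-likelihood test, which is 2.78% of those tested, and all 3 were long reads that begin with cytosine and rose on HFD. The 40 nt class held 967 and 2037 CPM on ND and 37531 and 22452 CPM on HFD, a log2 fold change of 4.32 ± 0.59 (SE; adjusted p = 1.85e-05, edgeR). The 39 nt class held 1019 and 1164 CPM on ND and 6838 and 4783 CPM on HFD, a log2 fold change of 2.41 ± 0.41 (adjusted p = 2.14e-04, edgeR). The 38 nt class held 750.5 and 2001 CPM on ND and 6902 and 5011 CPM on HFD, a log2 fold change of 2.11 ± 0.45 (adjusted p = 3.23e-03, edgeR). The diets did not overlap in any of the 3, but 47.2% of all classes had both HFD libraries above both ND libraries, against 6.48% with both below, and 22 classes (20.4%) had an unadjusted p under 0.05. With the base-change set as a term in the fit, the 38 nt class no longer passed (log2 fold change 1.41, adjusted p = 0.0800, edgeR), while the 40 nt class passed at a lower log2 fold change of 2.82 (adjusted p = 0.00371, edgeR) and the 39 nt class passed at 2.64 (adjusted p = 3.23e-05, edgeR). Over all alternatives the highest adjusted p was 0.00371 at 40 nt, 0.0103 at 39 nt and 0.0800 at 38 nt (edgeR or DESeq2), and the lowest was 3.86e-15, 2.39e-09 and 1.43e-08. The fit with the set term was added after the data were seen. In it the step from set C to set B is taken from the 2 Dnmt2-/- HFD libraries, 1 in each set. Its spread comes only from the Dnmt2+/+ HFD pair and the Dnmt2-/- ND pair, each of which lies within 1 set. The difference between the Dnmt2+/+ ND replicates is taken up by the set term and does not enter its p-values. The number of classes called was 5 without ND replicate 1 and 52 without ND replicate 2. The difference between genotypes in the diet effect passed in 0 of 108 classes (edgeR interaction, 6 at an unadjusted p under 0.05). The sets are divided between the diets in another way in each genotype, so this difference is mixed with set. The count of 0 does not show that the diet effect was alike in both genotypes.

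The most abundant classes gave a different picture. The 30 nt class beginning with thymine held 163257 and 84087 CPM on ND and 81034 and 88459 CPM on HFD, and the 31 nt class beginning with thymine 137764 and 79685 CPM on ND and 87312 and 71807 CPM on HFD. Both overlapped between diets, because ND replicate 1 was high and ND replicate 2 lay at the level of the HFD libraries. The 31 nt class beginning with guanine held 110641 and 140384 CPM on ND and 67416 and 62355 CPM on HFD, without overlap, at a log2 fold change of -0.95 ± 0.43 (adjusted p = 0.222, edgeR). The 30 nt class beginning with guanine held 40065 and 123901 CPM on ND and 51304 and 75256 CPM on HFD, and the 33 nt class beginning with thymine 67061 and 38119 CPM on ND and 41640 and 37911 CPM on HFD. None of these 5 classes passed the test.

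The 28S ribosomal RNA, the catalytic RNA of the large ribosomal subunit, supplied 24.3% and 49.8% of the reads of 35 to 44 nt on ND and 61.7% and 58.1% on HFD. Reads of the 28S start and its T8C form together made up 4.49% and 11.6% of the ND libraries and 19.4% and 19.3% of the HFD libraries. Between 35 and 44 nt they made up 2.27% and 5.21% of all reads on ND and 13.5% and 11.6% on HFD, which is 8.77 of the 11.0 points by which that length class differed. The remaining long reads, after the 12 most abundant starts were set aside, made up 1.91% and 3.47% on ND and 6.29% and 5.19% on HFD. At 40 nt with cytosine first, the 28S start and its T8C form gave 73.4% and 68.3% of the reads on ND and 91.5% and 91.4% on HFD. Without them that class held 257 and 646 CPM on ND and 3181 and 1928 CPM on HFD.

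The 28S reads of HFD sperm were longer as well as more abundant. All reads sharing the first 15 bases of the 28S start summed to 43529.6 and 114937 CPM on ND and 176504 and 172634 CPM on HFD, a log2 fold change of 1.14 ± 0.43 that did not pass (adjusted p = 0.419, edgeR). Their mean length was 31.9 and 31.4 nt on ND and 34.9 and 33.7 nt on HFD. Of these reads, 40 nt reads were 1.59% and 1.20% on ND and 17.7% and 10.7% on HFD, and 36 nt reads were 11.9% and 17.5% on ND and 21.5% and 21.0% on HFD. Reads of 20 nt were 10.4% and 10.3% on ND and 4.07% and 6.69% on HFD. By contrast the mean length of the glycine start was 30.7 and 30.6 nt on ND and 30.7 and 30.6 nt on HFD, so that the diets overlapped.

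The single 28S reads followed this order. The 40 nt read held 602 and 1258 CPM on ND and 27101 and 16072 CPM on HFD, 23.2-fold higher in the mean, with a log2 fold change of 4.54 ± 0.80. The 36 nt read held 4513 and 17561 CPM on ND and 30801 and 29109 CPM on HFD, the 35 nt read 10498 and 13068 CPM on ND and 17478 and 18923 CPM on HFD, and the 37 nt read 2744 and 10338 CPM on ND and 16893 and 14086 CPM on HFD. All 4 long reads were higher in both HFD libraries than in both ND libraries. The short reads did not share this: the 20 nt read held 4313 and 10043 CPM on ND and 5872 and 9265 CPM on HFD, and the 19 nt read 1020.4 and 4541 CPM on ND and 939 and 1102 CPM on HFD, with overlap in both. No single sequence passed the test in the edgeR fit over all sequences (adjusted p = 0.297 for the 40 nt read).

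A base change in the 28S reads separated the diets more sharply than their abundance did. Over the first 18 bases of the 28S start 54 single-base changes were scanned, and T8C alone exceeded 1% of the unchanged reads in any Dnmt2+/+ library; the highest of the others was 0.496%. Its level was 3.25% and 1.11% in the ND replicates, and the HFD replicates had 9.83% and 11.6%. Among long reads the level was similar across lengths inside a library. It was 3.02% and 1.09% on ND and 9.97% and 11.8% on HFD at 35 nt, and 2.78% and 1.02% on ND and 9.71% and 11.1% on HFD at 40 nt. Among reads of 20 nt it was 4.24% and 1.08% on ND and 10.1% and 10.9% on HFD, so that ND replicate 1 was higher at that length. In Dnmt2-/- sperm the T8C start was 3.19% and 3.23% of the unchanged start on ND, and 6.90% and 1.27% of it on HFD. The highest levels were thus those of the 3 libraries of set B, and the lowest those of the 2 libraries of set C, which include an ND and an HFD library.

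The T8C start summed to 1410 and 1271 CPM on ND and 17319 and 19894 CPM on HFD, 13.9-fold higher in the mean, at a log2 fold change of 3.79 ± 0.55 (adjusted p = 0.0617, edgeR). This sum over reads that share their first 15 bases was made after the data were seen, and 0 of 29781 such groups passed in edgeR (2706, or 9.09%, at an unadjusted p under 0.05, against 778 past an adjusted p of 0.05 in DESeq2), while 26.4% of them had both HFD libraries above both ND libraries and 12.9% had both below. The 40 nt T8C read held 16.3 and 11.4 CPM on ND and 2601 and 1783 CPM on HFD, with a log2 fold change of 7.30 ± 1.23. A second 40 nt form, with G40A at its last base, held 6.94 and 24.4 CPM on ND and 1627 and 879 CPM on HFD, with a log2 fold change of 6.32 ± 1.23. These 2 forms and the unchanged 40 nt read had the lowest p of the sequences higher on HFD with a mean of at least 100 CPM. Their adjusted p was 0.297 in edgeR.

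**Figure D3:**
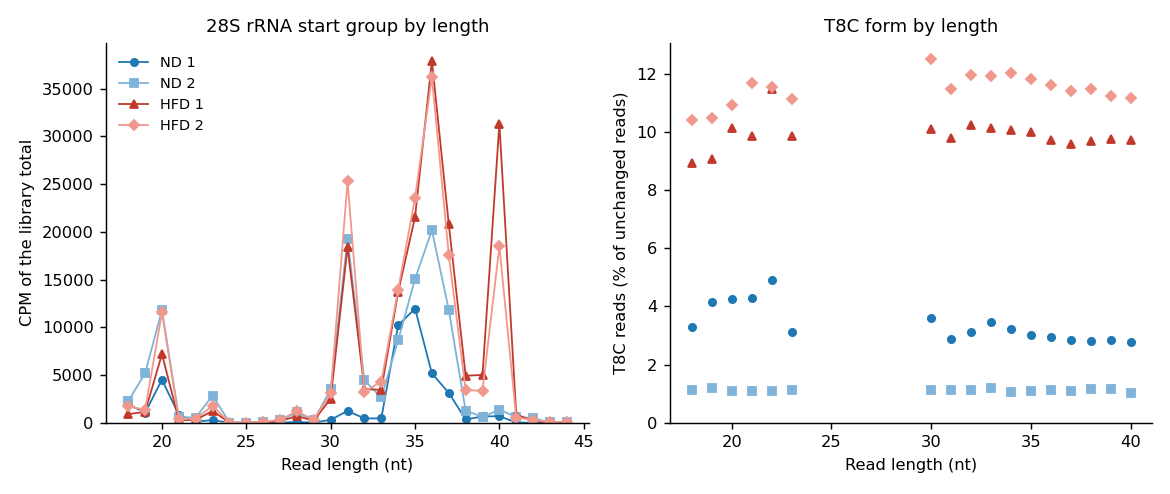
Left, CPM of the library total for reads that share the first 15 bases of the 28S rRNA start, by read length; right, T8C reads as a percentage of the unchanged reads, at lengths with at least 100 CPM of unchanged reads in every Dnmt2+/+ library. The HFD libraries have a 40 nt peak that the ND libraries lack. The T8C level of ND replicate 1 is higher at 19 to 22 nt than at 40 nt.

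The 5′ part of the glycine tRNA was more abundant in ND replicate 2 than in the other 3 libraries. Counting the unchanged start, the G6T start and the start with 1 guanine fewer, it made up 16.5% and 31.9% of the ND libraries and 15.1% and 18.6% of the HFD libraries. The 31 nt read was lower in both HFD libraries, at 63500.1 and 76455 CPM on ND and 27153 and 24947 CPM on HFD, with a log2 fold change of -1.43 ± 0.60 (adjusted p = 0.328, edgeR). The 30 nt read held 16441 and 64481 CPM on ND and 20933 and 32901.5 CPM on HFD, with overlap. Of the reads of this start, 31 nt reads were 65.9% and 44.6% on ND and 41.9% and 31.7% on HFD, and 32 nt reads 9.15% and 10.9% on ND and 17.4% and 14.9% on HFD. The 29 and 28 nt reads held 4194 and 5749 CPM and 2413 and 4351 CPM on ND, and 2734 and 4215 CPM and 2641 and 4060.2 CPM on HFD, again with overlap. The 29 nt read with 1 guanine fewer held 1855 and 10284 CPM on ND and 2591 and 4404 CPM on HFD.

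The changed glycine starts kept their ratio to the unchanged start. The G6T start was 21.0% and 25.7% of it on ND and 26.3% and 23.1% on HFD, and the start with 1 guanine fewer was 10.5% and 16.1% on ND and 12.9% and 13.8% on HFD. Neither ratio separated the diets. The start of a valine tRNA, by contrast, was higher in both HFD libraries, at 2952 and 8116 CPM on ND and 14673 and 17592 CPM on HFD (log2 fold change 1.54 ± 0.59, adjusted p = 0.427, edgeR). With the base-change set as a term its log2 fold change was -0.68.

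Of the 20 sequences that lead the 4 length classes, 6 were higher in both HFD libraries than in both ND libraries, 4 were lower in both and 10 overlapped. The background over the 50460 sequences tested was 34.1% higher and 12.8% lower. The 6 were 4 long 28S reads and 2 let-7 reads, and the 31 nt glycine read was among the 4. None passed the test, and edgeR called 0 of 50460 sequences, against 7003 (13.9%) at an unadjusted p under 0.05 and 1191 past an adjusted p of 0.05 in DESeq2. The edgeR count was 60 without ND replicate 1 and 6872 without ND replicate 2, and the count of 0 does not show that no sequence differed.

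**Figure D4:**
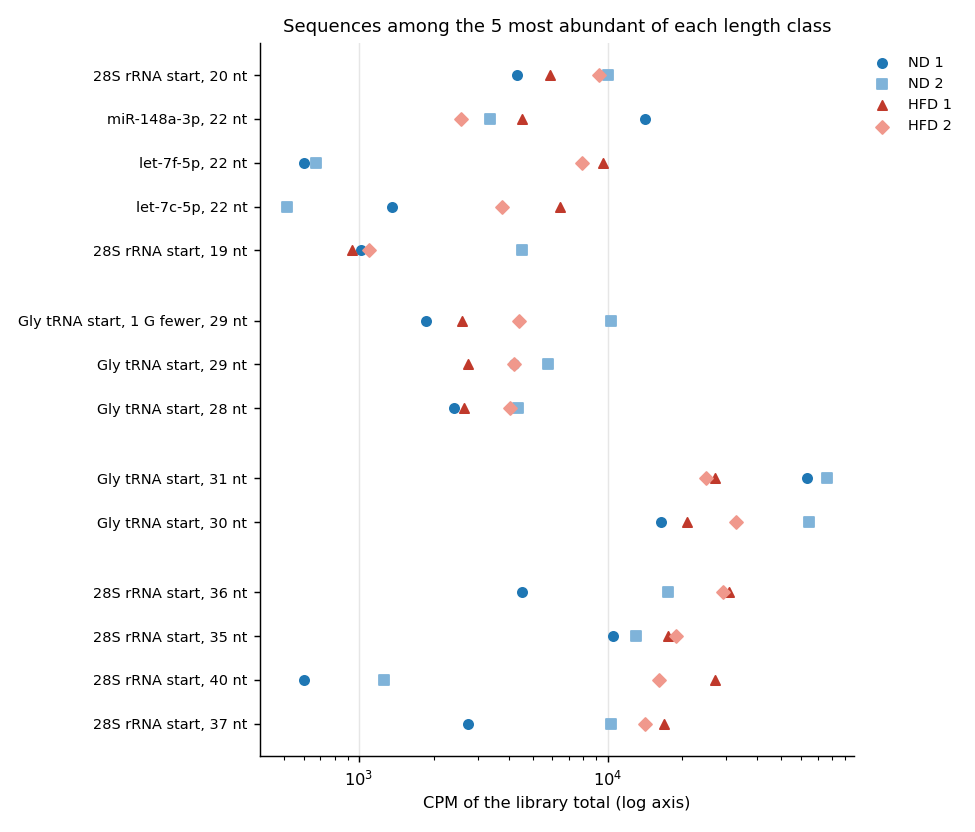
CPM of the library total (log axis) of sequences among the 5 most abundant in each length class, named by the RNA they start, with 1 point per Dnmt2+/+ library. Long 28S reads and let-7 reads are higher in both HFD libraries, and the ND replicates lie far apart for some of the glycine tRNA reads.

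The 50 most abundant sequences of each class are described by their counts. In the 35 to 44 nt class 35 were higher in both HFD libraries and 0 lower, with a median log2 fold change of 1.65. In the 18 to 24 nt class 29 were higher and 4 lower, with a median of 0.97. In the 25 to 29 nt class 5 were higher and 9 lower, with a median of -0.11, and in the 30 to 34 nt class 16 were higher and 11 lower, with a median of 0.31. Over all 50460 sequences tested 34.1% were higher in both HFD libraries and 12.8% lower in both, and the median log2 fold change was 0.39. Many listed sequences are forms of the same start that differ in length or in the last base, so they are not separate results. None of the 200 listed sequences passed the edgeR test. With TMM scaling the median over all sequences was -0.15, and those of the 4 classes, from short to long, were 0.58, -0.59, -0.11 and 1.11, so that the sign for 30 to 34 nt turned.

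Several long reads outside the leading starts were also higher on HFD. The 5′ part of a further tRNA at 36 nt held 27.1 and 505 CPM on ND and 844 and 621 CPM on HFD. The 5′ end of 5.8S ribosomal RNA at 40 nt held 0.105 and 152 CPM on ND and 280.2 and 769 CPM on HFD. A 37 nt read of the 28S start with 1 more cytosine at its 5′ end held 28.4 and 195 CPM on ND and 371 and 378 CPM on HFD. In each of these ND replicate 1 was far below ND replicate 2, which lay below both HFD libraries. These 3 were chosen after their values were seen, and their sequences are printed here to show where each read ends.
Further tRNA start, 36 nt: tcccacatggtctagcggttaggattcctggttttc
5.8S rRNA start, 40 nt: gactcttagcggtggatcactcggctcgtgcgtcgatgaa
28S rRNA start with 1 more cytosine, 37 nt: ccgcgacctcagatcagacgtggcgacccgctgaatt

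The 3′ ends of reads differed as well as their starts. For each start a consensus was extended from its most abundant read, and reads that matched it at every base but the last were counted. For the glycine start these were 6.44% and 17.1% of reads on ND and 29.1% and 29.3% on HFD. For the 28S start they were 2.32% and 10.0% on ND and 11.2% and 13.3% on HFD, and for miR-148a-3p 3.54% and 12.2% on ND and 16.8% and 18.5% on HFD. In all 12 starts both HFD libraries were above both ND libraries. In Dnmt2-/- sperm the glycine value was 9.15% and 5.12% on ND and 29.7% and 9.39% on HFD, so that only the HFD library of set B was high there.

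The base found at these ends depended on the RNA. In the glycine start it was mostly thymine, at 4.51% and 10.6% of reads on ND and 18.04% and 18.9% on HFD, with adenine at 1.54% and 4.85% on ND and 7.71% and 7.16% on HFD. In let-7f-5p it was mostly cytosine, at 2.73% and 8.84% on ND and 11.3% and 12.7% on HFD. In miR-148a-3p cytosine reached 2.85% and 9.23% on ND and 11.7% and 13.8% on HFD. The order of the libraries was the same for these RNAs, with ND replicate 1 lowest and ND replicate 2 next, although the base differed.

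The sequences of lowest p that were lower on HFD were substituted tRNA reads found in set A. The G29T form of the 31 nt glycine read held 9323 CPM in ND replicate 1, 23.1 CPM in ND replicate 2, and 10.0 and 9.64 CPM on HFD. The G29T form of the G6T read held 2367 CPM in ND replicate 1, 6.30 CPM in ND replicate 2, and 3.30 and 2.95 CPM on HFD. A histidine tRNA read with G30T held 2325 CPM in ND replicate 1 and 0.440, 0.486 and 0.394 CPM in the other 3 libraries. In Dnmt2-/- sperm the glycine form held 14016 and 9105 CPM on ND and 11.1 and 17.7 CPM on HFD. Each of these reads was therefore high in 1 of the 2 Dnmt2+/+ ND libraries, and their log2 fold changes rest on that library. Without ND replicate 1 the log2 fold changes of the 3 reads were -1.23, -1.01 and 3.48e-04, where with it they were -8.89, -8.56 and -11.34. The unchanged histidine read held 767 and 529.9 CPM on ND and 342 and 406 CPM on HFD. The printed reads carry the substituted base in capitals.
Glycine tRNA start with G29T, 31 nt: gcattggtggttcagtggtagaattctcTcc
Histidine tRNA start with G30T, 31 nt: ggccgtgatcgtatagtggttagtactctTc

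The microRNAs, which lead proteins to messages that pair with their seed, made up 2.80% and 2.18% of reads on ND and 7.24% and 5.51% on HFD. Reads of at most 26 nt were assigned when they began with the first 18 bases of a mature sequence of the RefSeq table for GRCm38.p6. Of 193 microRNAs tested, 1 passed in edgeR, which is 0.518% of them, and that was let-7f-5p. That count does not show that no other microRNA differed. DESeq2 called 18, and the edgeR count was 0 without ND replicate 1, 0 without HFD replicate 2 and 64 without ND replicate 2. Without the let-7 list the microRNA share was 2.34% and 1.80% on ND and 2.53% and 2.11% on HFD, so that the diets overlapped. Of the mature sequences printed, the let-7 members share their seed (bases 2 to 8, in capitals), and miR-206-3p, described below at a far lower level, has another.
let-7f-5p: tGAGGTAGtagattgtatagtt
let-7b-5p: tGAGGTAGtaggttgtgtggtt
miR-206-3p: tGGAATGTaaggaagtgtgtgg

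The let-7 family is made from several loci, and let-7f-5p comes from chr13:48537889-48537910 on the minus strand and chrX:151912353-151912374 on the plus strand (GRCm38.p6). It held 1088 and 1231 CPM on ND and 18702 and 14890.0 CPM on HFD, a log2 fold change of 3.86 ± 0.57 (adjusted p = 0.0179, edgeR). The level was 14.5-fold higher in the mean, with close replicates on both diets. let-7a-5p and let-7c-5p, which cannot be told apart by their first 18 bases, held 2669 and 1478 CPM on ND and 19364 and 12429.8 CPM on HFD (adjusted p = 0.102, edgeR), and let-7b-5p 536 and 249 CPM on ND and 3645 and 2374 CPM on HFD (adjusted p = 0.109, edgeR). The 22 nt reads among the 20 leading sequences repeated this, at 599 and 672 CPM on ND and 9573 and 7859 CPM on HFD for let-7f-5p, and 1357 and 514 CPM on ND and 6433 and 3772 CPM on HFD for let-7c-5p.

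All 9 measured members of the let-7 list were higher in both HFD libraries, against 38.3% of the 193 microRNAs tested (6.22% were lower in both), and their median log2 fold change was 3.46 against 0.59 over all. Among them let-7k was at 0 in an ND library, so its fold change rests on a value at the floor. The list summed to 4597 and 3778 CPM on ND and 47130.4 and 34038 CPM on HFD. All 9 kept their direction with TMM factors and with DESeq2, with medians of 2.12 and 2.24. With the base-change set as a term 8 of 9 were higher, with a median of 1.51, and the log2 fold change of let-7f-5p was 2.24 and did not pass (adjusted p = 0.228; its range over the alternatives was 2.07e-10 to 0.273). In Dnmt2-/- sperm the list summed to 2717 and 2219 CPM on ND and 41575 and 11986 CPM on HFD.

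The other abundant microRNAs did not separate the diets in this way. miR-148a-3p, known from secretory and epithelial tissues, held 14873 and 4019 CPM on ND and 5691 and 3351 CPM on HFD, so that ND replicate 1 alone was high. Its leading 22 nt read held 14146 and 3358.5 CPM on ND and 4542 and 2575 CPM on HFD. miR-10a-5p and miR-10b-5p, encoded in the Hox gene clusters at chr11:96317186-96317208 and chr2:74726074-74726096 on the plus strand, held 1992 and 2137 CPM and 1644 and 1780.1 CPM on ND, and 3428 and 3468 CPM and 2399.5 and 2435 CPM on HFD. Both were higher in both HFD libraries by 1.67 and 1.41-fold, but neither passed, and their sign turned with TMM factors, which moved the median of all microRNAs from 0.59 to -0.22 on the log2 scale. miR-881-3p, from a cluster on the X chromosome active in the testis, held 1435 and 572 CPM on ND and 613 and 400.3 CPM on HFD, with overlap.

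The marker lists were set beside the label of mature sperm as a description and do not test it. The germ cell and sperm list, of which 9 of 10 names were in the table, summed to 5229 and 4638 CPM on ND and 6592 and 6404 CPM on HFD, most of it miR-10a-5p and miR-10b-5p. Of its 8 members tested 3 were higher in both HFD libraries, a share near the 38.3% of all microRNAs tested. In both HFD libraries 1 was lower, against 6.22% of all microRNAs, and 0 passed. The median log2 fold change of 0.35 turned to -1.16 with TMM factors. Of its defining members, miR-34b-5p was at 0 in ND replicate 1 and at 0.220, 0.291 and 0.295 CPM in the others, and miR-449a-5p was at 0 in ND replicate 1 and at 4.76, 2.91 and 3.64 CPM in the others. A count of 0 in ND replicate 1 allows up to 0.158 CPM, at 3 reads. Thus miR-34b-5p was at or near 0 in all 4 libraries, and miR-449a-5p was low but detected in all but ND replicate 1. No other measured member of the list was at 0 in any of the 4 libraries, and miR-881-3p held 400.3 CPM or more in each. In bulk samples fewer cells of a type and less RNA per cell cannot be told apart.

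The markers of other cell types were measured in the same way. The epithelium list, 7 members of the miR-200 family and others, summed to 309.98 and 1975 CPM on ND and 4091 and 3565 CPM on HFD, and 3 of the 7 were higher in both HFD libraries, a share near the 38.3% of all microRNAs tested. miR-200c-3p held 87.8 and 765 CPM on ND and 2423 and 1794 CPM on HFD, miR-200b-3p 157 and 854 CPM on ND and 1381 and 1527 CPM on HFD, and miR-200a-3p 59.0 and 276 CPM on ND and 204 and 170 CPM on HFD. None passed the test, and with the base-change set as a term 0 of 7 were higher. The blood list summed to 3.15 and 36.5 CPM on ND and 97.6 and 59.8 CPM on HFD, with miR-144-3p at 0 in all 4 libraries and miR-142a-3p and miR-142a-5p at 0 in ND replicate 1. Most of the sum was miR-146a-5p, an inflammation-induced microRNA, at 2.21 and 29.2 CPM on ND and 82.7 and 51.1 CPM on HFD (adjusted p = 0.549, edgeR). miR-155-5p, known from activated immune cells, held 0.210 and 1.76 CPM on ND and 10.3 and 5.41 CPM on HFD (adjusted p = 0.449, edgeR). Of 5 blood members tested 3 were higher in both HFD libraries and 0 lower, against 38.3% and 6.22% of all microRNAs tested, and 0 passed. By log2 fold change 4 were higher and 1 lower, and with TMM factors 3 were higher and 2 lower.

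A muscle microRNA was close to absent on ND and present on HFD. miR-206-3p, expressed in skeletal muscle and encoded at chr1:20679055-20679076 on the plus strand, gave 3 and 2 reads on ND and 755 and 758 reads on HFD, or 0.158 and 0.147 CPM against 73.3 and 74.6 CPM. It was 1 of 5 names of the muscle list found in the table, and it did not pass (adjusted p = 0.102, edgeR). In Dnmt2-/- sperm it held 0.0759 and 0.152 CPM on ND and 87.5 and 0.676 CPM on HFD, so that the 3 libraries with more than 1 CPM are those of set B. The liver list summed to 27.1 and 21.1 CPM on ND and 12.0 and 11.9 CPM on HFD. Most of this sum was miR-192-5p, at 26.5 and 17.7 CPM on ND and 10.3 and 9.05 CPM on HFD. Of the 2 liver members tested, 1 was higher and 1 lower on HFD by log2 fold change, and 0 passed in edgeR. With TMM factors 0 were higher and 2 lower. The endothelium marker miR-126a-3p held 1.37 and 14.6 CPM on ND and 19.6 and 12.1 CPM on HFD. The part of these cell types in the differences of let-7, of the 28S reads and of the read lengths was not tested.

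**Figure D5:**
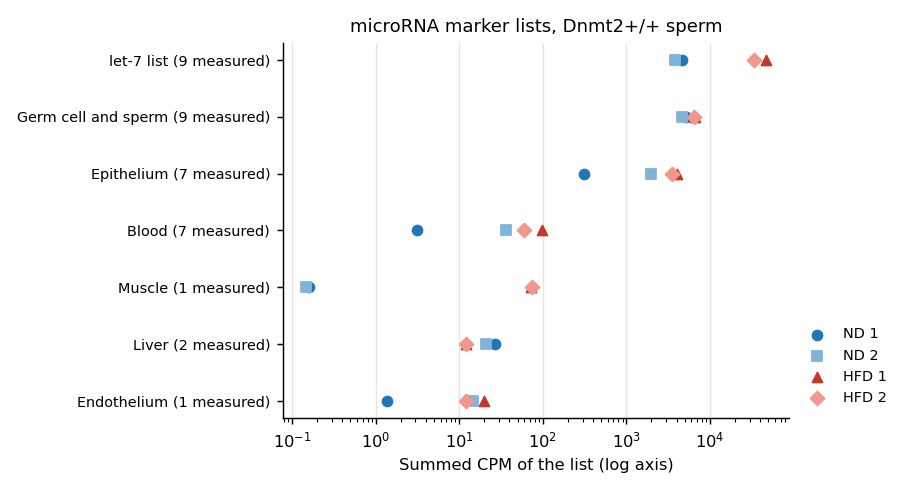
Summed CPM (log axis) of each microRNA marker list, with 1 point per Dnmt2+/+ library and the number of measured members in brackets. The endothelium list overlaps between the diets, and the epithelium, blood and endothelium lists place ND replicate 1 lowest.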

How the data were processed

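Sperm small RNA was sequenced after Trizol extraction and TruSeq library preparation, per the labels' protocols. The authors deposited counts, 1 file per library, in which every distinct read of 18 to 44 nt stands with its length and its number of reads. Adapter trimming and read filters are not given in the sources used here. Libraries were grouped by the labelled genotype and diet.

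Counts were scaled to CPM of the file total and summed in 4 ways: by length and first base, by distinct sequence, by mature microRNA (RefSeq table of GRCm38.p6) and, added after the data were seen, by the first 15 bases. Every table was tested in edgeR 4.0.16 (quasi-likelihood, R 4.3.3) with all 8 sperm libraries and 4 group means, filterByExpr and no further scaling factor. Calls needed a p below 0.05 after Benjamini-Hochberg adjustment. DESeq2 1.42.0, TMM factors, other filters and left-out libraries were the alternatives. The scripts were tested on simulated data. At a spread near that of the distinct sequences and of the groups of shared first bases the fit made no call in those checks, so a count of 0 in those tables does not show that nothing differed. At a spread near that of the microRNAs it called 31.6% of the simulated 8-fold changes, so changes of that size can be missed there too.

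The text names the 5 most abundant sequences of each length class, the 3 lowest p in each direction with a mean of at least 100 CPM, the 5 most abundant classes and microRNAs, those past the threshold, and up to 3 members of each marker list above 10 CPM; list members at or near 0 are named besides. Members and lists were chosen with earlier results of these data known. Replicates of a diet differed beyond counting noise (chi-square per sequence of 459.6 on ND and 46.2 on HFD), so each counted as its own library. Libraries carry no molecular identifiers, so PCR copies count as reads, and the intervals and floors describe counting error alone. The transfected fibroblast libraries were not used here. Some reads that the rule selects are not reported here.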

Additional observations from a re-analysis of the deposited data

How the results depend on the processing

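The fits were repeated with TMM factors, DESeq2, no filter on low counts, the 4 Dnmt2+/+ libraries alone, a replicate block and each library left out, and, chosen after the data were seen, with the base-change set as a term; all fits of the shared first bases were also added then. A fit that leaves a diet with 1 library assumes that it varies like the other groups. Where a result moved, the cause was not tested. Counting each distinct sequence once, the length class differences were -7.54 (18 to 24 nt), 0.639, 1.03 and 5.87 percentage points (35 to 44 nt). With libraries left out they ranged from 2.39 to 5.39, -1.92 to 0.321, -16.6 to -11.5 and 9.99 to 11.9.

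The number of sequences called was 1191 with DESeq2, 1312 with no filter and 60 to 6872 with libraries left out. The classes of length and first base numbered 22 with DESeq2 and 3 to 52 with libraries left out. The microRNAs numbered 0 with TMM factors, 18 with DESeq2, 12 with no filter, 2 in the Dnmt2+/+ libraries alone, 2 with the block, 0 with the set term and 0 to 64 with libraries left out. The groups of shared first bases numbered 778 with DESeq2, 728 with no filter, 348 in the Dnmt2+/+ libraries alone, 5 with the block and 3 to 124 with libraries left out. The highest counts of sequences, classes and microRNAs came without ND replicate 2, the lowest of sequences without ND replicate 1, and the lowest of microRNAs without ND replicate 1 or HFD replicate 2.

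The log2 fold change of let-7f-5p was 2.28 with TMM factors (adjusted p = 0.224, edgeR) and 2.24 with the set term, and 3.68 to 4.01 with libraries left out. The sign turned with the set term for the Val tRNA start (-0.68), miR-881-3p (1.23), miR-200c-3p (-1.39), miR-200b-3p (-1.15), miR-126a-3p (-1.23), miR-148a-3p (0.31) and its 22 nt read (0.46), and 2 other abundant reads (0.27 and 0.51). It turned for miR-10a-5p and miR-10b-5p with TMM factors (-0.84 and -1.08) and DESeq2 (-0.59 and -0.83), and for miR-200a-3p (-0.73, -0.55 and, with the set term, -1.63). The 20 nt 28S read was at -0.43, -0.40 and -0.92 under these 3 settings.

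With libraries left out, the sign turned within these ranges: -0.41 to 0.81 for the 20 nt 28S read, -1.99 to 0.083 for the 22 nt miR-148a-3p read, -0.66 to 0.076 and -1.61 to 0.13 for 2 other abundant reads, and -1.56 to 0.91, -0.38 to 0.47 and -1.26 to 0.71 for the 29 nt glycine read with 1 guanine fewer and the 28 and 30 nt glycine reads. The histidine G30T read ranged from -12.34 to 3.48e-04, the 30 nt thymine, 30 nt guanine and 33 nt thymine classes from -0.95 to 0.011, -0.97 to 0.66 and -0.75 to 0.061, and miR-148a-3p and miR-200a-3p from -1.72 to 0.17 and -0.56 to 1.66.

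The replicate numbers come from the labels, which do not say what they share. Between Dnmt2+/+ ND and HFD, same-numbered libraries correlated in their deviations with r = 0.113 over sequences and 0.157 over microRNAs. Over all pairs of sperm groups r ran from -0.276 to 0.224 over sequences and from -0.536 to 0.570 over microRNAs, so its sign was not constant. With the replicate block edgeR called 0 sequences and 3 classes, and the 28 nt glycine read was at 1.43e-03.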
